A study of Homo sapiens with 9 samples.

Results

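The cytosolic ribosomal protein genes encode the proteins of the 60S and 40S subunits of the ribosome. They were followed here while human embryonic stem cells (hESC) were differentiated toward otic progenitors, the precursors of the inner ear. Members were chosen by symbol: RPL or RPS with a number and at most the ending A, X, L, L1 or L3, together with RPSA and RPLP0 to RPLP2, wherever a probe set names that symbol alone. The rule found 59 genes among 19775 tested, 38 of the large subunit and 21 of the small subunit. No measured value entered the rule, and where a gene had several probe sets, that of the highest mean level was read. A further 15 symbols that match the rule are named on the platform only beside other symbols and were not analysed here. Among these were RPL5, RPL13A, RPS2 and RPS26.

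The series holds 9 oligonucleotide arrays read near the 3' end of transcripts, 1 for each of 3 established hESC lines, Shef3, H14 and Shef1, in each of 3 groups. In the FGF3+10 group, cells on laminin spent 14 days in DFNB medium, which is DMEM and F12 with the N2 and B27 supplements, with 50 ng/ml each of FGF3 and FGF10. DFNB cells had the same medium and time without added FGF. The hESC group was undifferentiated cells at day 0, grown with 4 ng/ml basic FGF and serum replacement on inactivated feeders of mouse embryonic fibroblasts. None of the 3 groups carries an engineered allele per the labels, and hESC differ from both others in medium, growth factor, feeders, substrate and time at once. Each group thus has n = 3 lines, so the spread within a group includes the differences between lines, and no label says whether a line was cultured more than once.

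Ribosomal proteins are needed in nearly equal numbers, 1 copy of most of them per ribosome, and in dividing cells their mRNAs are among the most abundant. Nearly all of these mRNAs begin with a terminal oligopyrimidine (TOP) motif, a C at the cap followed by a run of C and T (U in the RNA), through which mTOR and LARP1 set their translation together. A few members have a paralogue, a second gene for nearly the same protein, such as RPL22L1 beside RPL22 and RPL39L beside RPL39. Stem cells and early progenitors are known for a high output of ribosome components.

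The start of the transcript is what most of the family shares beyond the names that chose it. RefSeq (GRCh38.p14) gave a promoter window for 51 of the 59 members. Each sequence shown is 30 bases, 15 before the annotated start and 15 from it onward, on the strand of the gene, with the C/T run in capitals where a run of at least 5 bases opened by a C begins within 5 bases of the start. RPS6 (chr9:19380222-19380251, minus strand), the substrate of the S6 kinases, RPS23 (chr5:82278340-82278369, minus) at the decoding centre and RPL24 (chr3:101686704-101686733, minus) show the family's usual start. RPL37A (chr2:216498829-216498858, plus) and RPL3 (chr22:39319609-39319638, minus), which lies near the peptidyl transferase centre, complete the examples.
RPS6: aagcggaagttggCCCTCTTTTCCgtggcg
RPS23: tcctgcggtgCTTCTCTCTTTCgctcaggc
RPL24: ttcccatgattCTCTCTTTCTTTTCgccat
RPL37A: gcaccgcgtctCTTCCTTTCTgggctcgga
RPL3: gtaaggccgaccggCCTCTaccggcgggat
The next set was chosen to compare paralogues, with their counterparts where they are shown. RPL22 (chr1:6199581-6199610, minus) and RPL22L1 (chr3:170870181-170870210, minus) both hold a run. RPS27 (chr1:153990747-153990776, plus) holds one, while RPS27L (chr15:63157463-63157492, minus), RPL7L1 (chr6:42879601-42879630, plus), RPL26L1 (chr5:172958865-172958894, plus, 1 of 2 listed starts) and RPL10L (chr14:46651767-46651796, minus) do not.
RPL22: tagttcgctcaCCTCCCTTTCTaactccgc
RPL22L1: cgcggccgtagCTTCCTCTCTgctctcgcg
RPS27: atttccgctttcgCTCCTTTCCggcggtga
RPS27L: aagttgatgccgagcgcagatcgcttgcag
RPL7L1: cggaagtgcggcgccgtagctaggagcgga
RPL26L1: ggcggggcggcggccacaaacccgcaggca
RPL10L: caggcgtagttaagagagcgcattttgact

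A run beginning exactly at the annotated start was present in 35 of 51 members (68.6%), against 934 of 15384 genes tested (6.07%). Allowing 5 bases on either side gave 41 of 51 members (80.4%) and 27.8% of the genes tested. By that wider measure the run was found in 37 of the 43 bright members with a window (86.0%) and in 1 of 5 paralogues (20.0%), bright members being the 49 defined below. Translation initiation factors held it in 16 of 29 genes (55.2%), mitochondrial ribosomal proteins in 16 of 68 (23.5%) and ribosome assembly factors in 11 of 55 (20.0%). The letters CTCTTTC, which fall within such runs and were searched on both strands within 20 bases of the start, occurred on the gene's strand in 8 of 43 bright members (18.6%) and in 0.878% of all genes tested. On the other strand they occurred in 0 of 43 bright members and in 0.572% of genes tested. These matches describe annotated sequence, and no start was mapped in these cells.

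**Figure D1:**
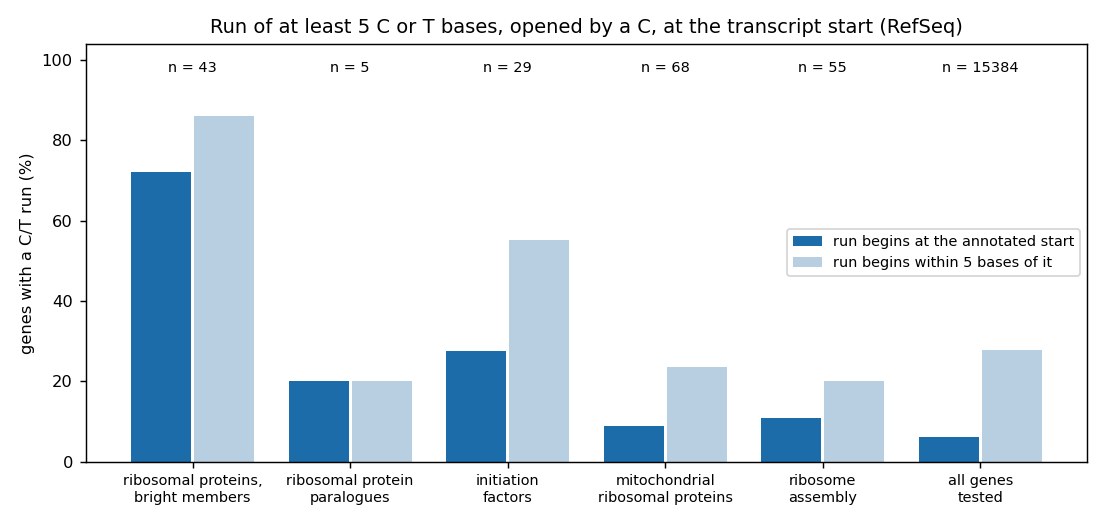
Share of genes (%) with a run of at least 5 C or T bases opened by a C, at the annotated start (dark bars) or within 5 bases of it (pale bars), for ribosomal protein genes, related lists and all genes tested. The bright ribosomal protein genes reach 72.1% and 86.0%, against 6.07% and 27.8% of all genes tested, and n above each pair is the number of genes with a RefSeq window.

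Deposited values are logarithms whose base no source used here states; they are read as log2, and every array has a median of 3.20. A level is the value of 1 probe set in these log2 units and is not compared between genes. Most members were bright, with 51 of 59 above a mean level of 10, and between 10 and 17 of the 50 brightest probe sets on each array were theirs. The 49 members that are not paralogues and have a mean level of 8 or more are called the bright members. This set was trimmed after its values had been seen, so it is described and not tested. It holds 29 proteins of the large subunit and 20 of the small subunit. Read for the large subunit were RPL3, RPL6, RPL7, RPL8, RPL9, RPL10A, RPL11, RPL12, RPL14, RPL18, RPL19, RPL22, RPL23A, RPL24, RPL27, RPL29, RPL30, RPL31, RPL32, RPL34, RPL35, RPL35A, RPL36, RPL37, RPL37A, RPL38, RPL39, RPL41 and RPLP1. Those of the small subunit were RPS3, RPS4X, RPS6, RPS7, RPS9, RPS10, RPS12, RPS14, RPS15, RPS15A, RPS16, RPS18, RPS19, RPS21, RPS23, RPS24, RPS25, RPS27, RPS28 and RPS29. RPL27A, RPL36A and RPLP2 had dim probe sets, with a mean level below 8, and 7 members were paralogues. Of the paralogues, RPL3L, RPL10L and RPL39L also lay below 8.

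As means of 3 lines, most ribosomal protein genes had slightly lower deposited levels at day 14 than in hESC, with or without added FGF. No member passed the test in any comparison. The median over the bright members was 11.97, 12.42 and 12.12 in FGF3+10 cells of Shef3, H14 and Shef1. In DFNB cells it was 12.11, 12.37 and 11.87 in the same lines, and in hESC 12.87, 12.68 and 11.97. The 3 groups overlap, because Shef1 hESC lie among the day 14 arrays. As group means these were 12.17 ± 0.23 in FGF3+10 cells, 12.12 ± 0.25 in DFNB cells and 12.51 ± 0.48 in hESC (SD, n = 3 each). In Shef1 the median change of all 59 members was 0.11 for FGF3+10 against hESC. After quantile normalisation, described below, the members had median changes of -0.06 for FGF3+10 and -0.09 for DFNB against hESC. All genes had -0.06 and -0.08 on that scale. In bulk RNA, fewer cells of a type and less RNA per cell cannot be told apart.

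**Figure D2:**
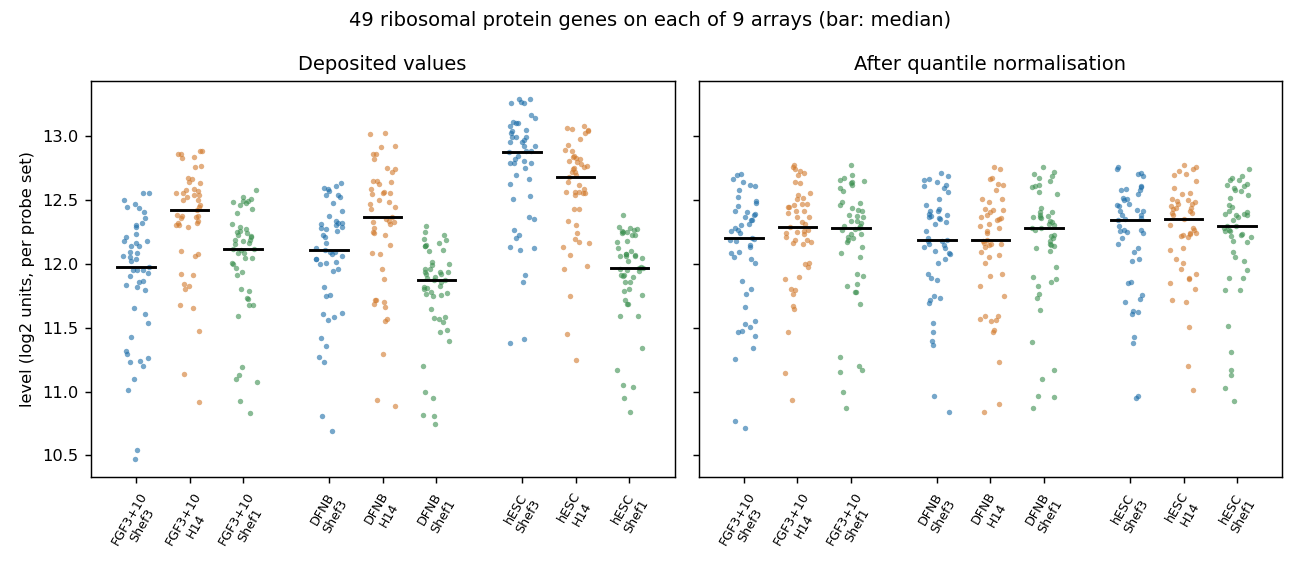
Levels (log2 units) of the 49 bright ribosomal protein genes on each of the 9 arrays, as deposited (left) and after quantile normalisation (right), with 1 point per gene and a bar at the median. The deposited medians run between 11.87 and 12.87, and after quantile normalisation between 12.19 and 12.35.

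In DFNB against hESC, 57 of 59 members had a lower mean in DFNB cells, with a median log2 change of -0.36, while over all genes 60.5% were lower and the median was -0.19. Genes of mean level 10 or more had a median of -0.29. By limma with Benjamini-Hochberg adjustment over all genes, 0 of 59 members were called at an adjusted p below 0.05, against 40 of 19775 genes or 0.202%, and the lowest adjusted p of a member was 0.13 (3 members had an unadjusted p below 0.05). All 3 DFNB arrays lay below all 3 hESC arrays for 8 members, RPL3, RPL10L, RPL14, RPL22L1, RPL27A, RPL36, RPL39L and RPS25, where 14.3% of all genes did so. That share of 59 is near the background. With cell line as a block, 189 genes were called and still 0 members.

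Between FGF3+10 cells and hESC, 58 of 59 members had a lower mean in FGF3+10 cells and the median log2 change was -0.33, against 62.4% of all genes and a median of -0.19. For genes of mean level 10 or more the median was -0.30. Here 0 members were called, against 35 genes or 0.177%, with a lowest adjusted p of 0.265 (limma, 2 members at an unadjusted p below 0.05). Groups did not overlap, with FGF3+10 lower, for RPL10L, RPL22L1 and RPS25, and 11.3% of all genes behaved so. Both of these comparisons use the same hESC arrays, so their likeness is not independent. The block on cell line raised the count over all genes to 115 and left that of members at 0.

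FGF3+10 cells and DFNB cells had a median difference near 0 in these genes, with opposite signs in Shef3 and Shef1. The median log2 change over the 59 members was 0.04, with 48 members higher and 11 lower in FGF3+10 cells, and over all genes it was 0.00. In Shef3 the median was -0.16, with 55 of 59 members lower in FGF3+10 cells. In H14 it was 0.03, with 28 lower, and in Shef1 0.25, with 6 lower. Of all 19775 genes, 11882, 8791 and 9291 were lower in Shef3, H14 and Shef1. After quantile normalisation the medians of the members were -0.04, 0.09 and 0.01 in these lines, with 42, 6 and 23 members lower. The count of members lower in FGF3+10 cells was 51 without the Shef1 arrays, 51 without the DFNB array of Shef1 and 55 without the FGF3+10 array of H14. It was 21 without the H14 arrays, 6 without the Shef3 arrays, 6 without the DFNB array of H14 and 4 without the FGF3+10 array of Shef3. By limma 0 members and 0 of 19775 genes (0%) were called, 300 genes had an unadjusted p below 0.05, and no member was among those. Among the members with the highest moderated t was RPS6, at 12.23, 12.67 and 12.49 in FGF3+10 cells of Shef3, H14 and Shef1, against 12.33, 12.54 and 12.20 in DFNB cells, a log2 change of 0.11 ± 0.31 (SE). Next to it RPS10, of the mRNA entry side of the small subunit, RPS21, RPL22, RPL12 of the stalk base and RPL39L had changes between 0.08 and 0.26. RPS10 read 11.97, 12.37 and 12.18 in FGF3+10 cells, 12.04, 12.34 and 11.87 in DFNB cells, and 12.87, 12.64 and 12.02 in hESC. RPS21 read 12.08, 12.50 and 12.19 in FGF3+10 cells, 12.12, 12.44 and 11.93 in DFNB cells, and 12.92, 12.72 and 12.06 in hESC. In both genes the FGF3+10 and DFNB arrays overlapped. The lowest t belonged to RPL36A, RPS27L, RPL10L, RPL7L1, RPLP2 and RPL36, with changes between -0.97 and -0.04. Every one of these 12 has a standard error larger than its change except RPL36A.

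The 3 lines did not move alike in the deposited values, to which this paragraph refers. Medians by line after quantile normalisation are given further below. For FGF3+10 minus hESC the 59 members had a median change of -0.84 with Shef3, -0.24 with H14 and 0.11 with Shef1. For DFNB minus hESC Shef3 had -0.68, H14 -0.26 and Shef1 -0.12. Of the 49 bright members, 49 had their lowest change in Shef3 in each of these comparisons, and in Shef1 the level in FGF3+10 cells was lower than in hESC for 6. In Shef1 this was so for 9192 of all 19775 genes and for 284 of the 776 genes of mean level 10 or more. These 776 genes also had their lowest median change in Shef3, at -0.73 for FGF3+10 and -0.61 for DFNB. With 1 array per line and group this difference between lines has no test. Without the Shef3 arrays the median over the members was -0.05 for FGF3+10 and -0.19 for DFNB against hESC, and without the Shef1 arrays it was -0.54 and -0.47. On 46 of 49 bright members the Shef3 hESC array was the highest of all 9.

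**Figure D3:**
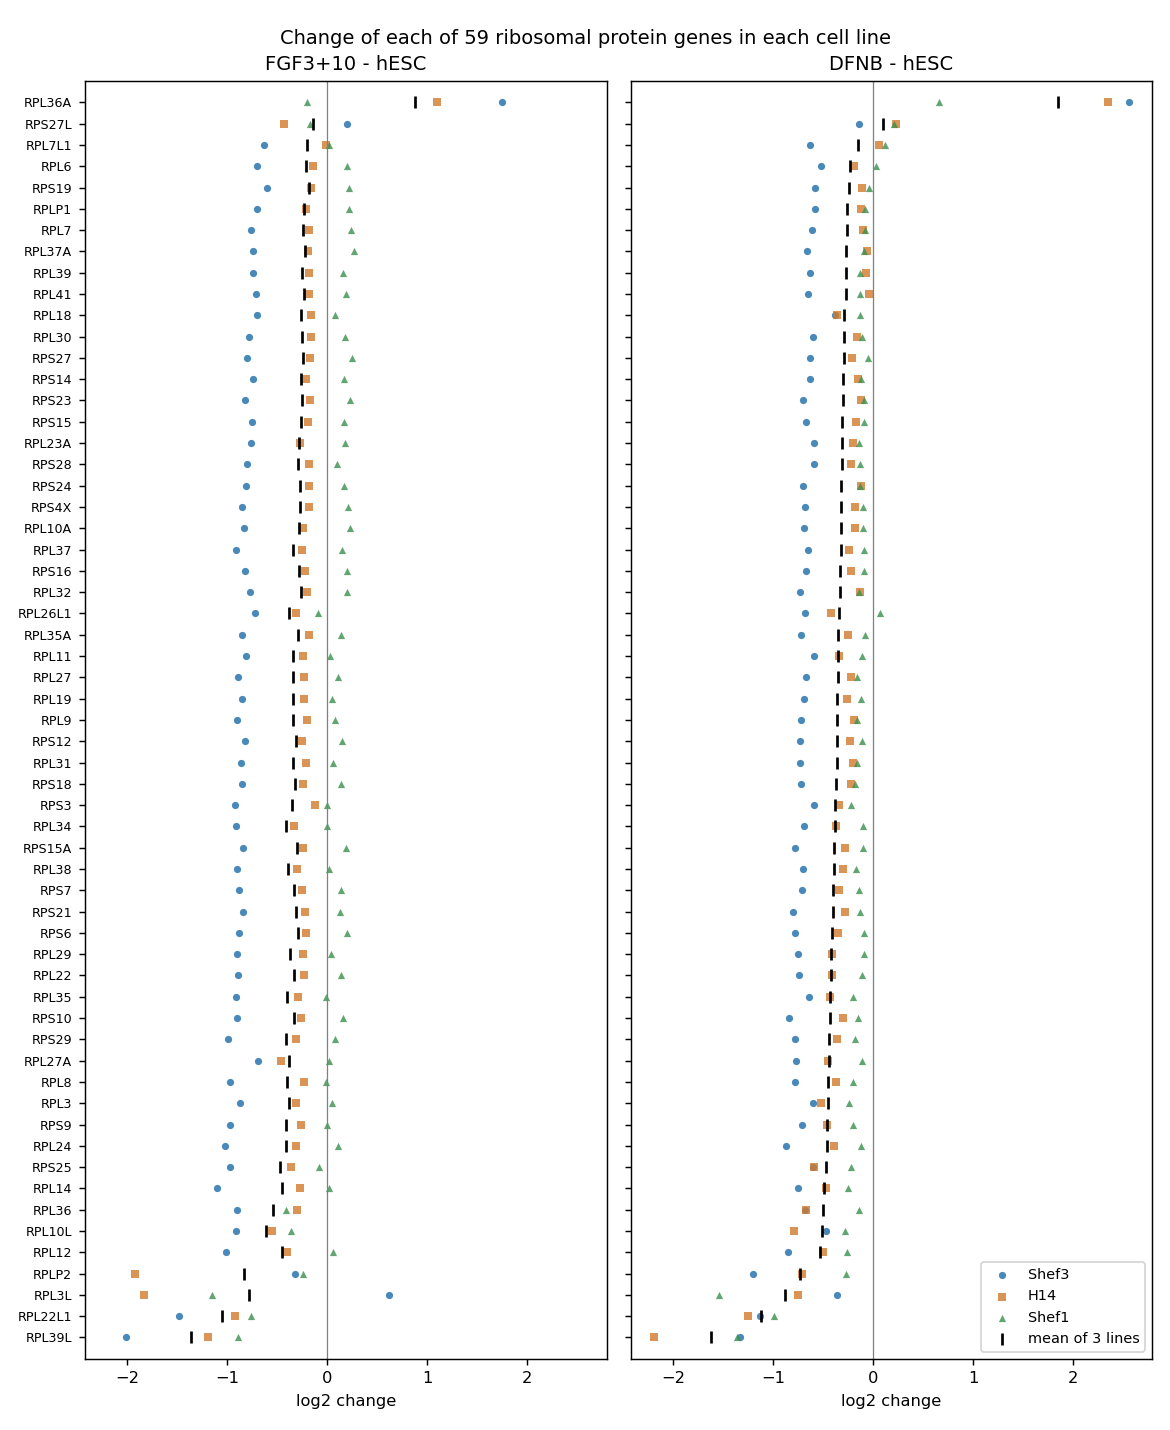
Log2 change of each of the 59 ribosomal protein genes in Shef3 (circles), H14 (squares) and Shef1 (triangles), with the mean of the lines as a bar, for FGF3+10 minus hESC (left) and DFNB minus hESC (right). Genes are sorted by DFNB minus hESC, and for the bright members Shef3 lies furthest to the left, at a median of -0.85 and -0.68.

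Other measures of the arrays are given beside this pattern, and their part in it was not tested. The median of the 725 genes of mean level 10 or more that are not members was 10.38, 10.60 and 10.67 in FGF3+10 cells of Shef3, H14 and Shef1, 10.50, 10.64 and 10.61 in DFNB cells, and 11.01, 10.90 and 10.56 in hESC. The highest value on the array was 12.68, 13.01 and 12.65 in FGF3+10 cells, 12.74, 13.06 and 12.38 in DFNB cells, and 13.35, 13.13 and 12.56 in hESC. Hybridisation spike-ins, bacterial transcripts that are not from the cells, averaged 9.20, 9.39 and 9.23 in FGF3+10 arrays, 9.45, 9.82 and 9.04 in DFNB arrays, and 9.98, 9.46 and 9.17 in hESC arrays. Poly-A spike-ins, added to the RNA, stood at 7.45 ± 0.04 in Shef1, against 5.34 ± 0.06 in H14 and 5.33 ± 0.35 in Shef3 (SD, n = 3 arrays each). The gap between 3' and 5' probe sets of GAPDH, a measure of RNA quality, was 0.309, 0.141 and 0.196 in FGF3+10 arrays, 0.207, 0.182 and 0.180 in DFNB arrays, and 0.529, 0.233 and 0.235 in hESC arrays of Shef3, H14 and Shef1. It was larger on every hESC array than on any DFNB array, with p = 0.1 in a two-sided exact permutation test, the smallest that 3 against 3 allows, and largest on the Shef3 hESC array. For ACTB the same gap was 0.0824, 0.113 and 0.688 in FGF3+10 arrays and 0.241, 0.0778 and 0.538 in DFNB arrays, with lines ordered as before. In hESC arrays the ACTB gap was 0.522, 0.244 and 0.660. The groups thus overlapped for ACTB, and its largest gap was on the FGF3+10 array of Shef1. The 18S rRNA control probe sets averaged 9.89 to 10.7 in FGF3+10 arrays and 10.02 to 10.4 in DFNB arrays. In hESC arrays the 18S probe sets averaged 11.6, 6.83 and 9.68.

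Quantile normalisation, which gives all arrays 1 distribution, moved the median of all genes to -0.06 for FGF3+10 minus hESC and -0.08 for DFNB minus hESC. On that scale the medians of the members were -0.06 and -0.09. By line, in Shef3, H14 and Shef1, they were -0.11, -0.03 and -0.04 for FGF3+10 and -0.07, -0.13 and -0.05 for DFNB. The median of the bright members had an SD over the 9 arrays of 0.35 as deposited and 0.063 after quantile normalisation. Members hold many of the highest ranks on every array, and this step gives each rank 1 value. Part of that fall thus follows from the method. On the quantile scale 46 of 59 members were lower in FGF3+10 cells and 52 of 59 in DFNB cells than in hESC.

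Markers of cell identity differed by line too. The mean level of 9 measured pluripotency genes of 10 listed, among them NANOG and PRDM14, was 2.91, 8.70 and 8.44 in FGF3+10 cells of Shef3, H14 and Shef1, 2.94, 7.15 and 8.32 in DFNB cells, and 10.80, 10.25 and 8.92 in hESC. Shef3 thus showed the widest gap and Shef1 the narrowest, and 1 listed gene was below level 4 in Shef1 hESC. Neural and placodal markers, 9 of 10 measured, averaged 6.30 to 6.56 in FGF3+10 cells, 5.12 to 6.56 in DFNB cells and 1.66 to 3.01 in hESC, with 8, 6 and 7 of the 9 below level 4 in Shef3, H14 and Shef1 hESC. Mesenchyme and fibroblast genes such as COL1A1 averaged 8.61 to 11.1 in FGF3+10 cells, 10.1 to 11.8 in DFNB cells and 9.72 to 10.0 in hESC, with none of the 6 below level 4 on any array. Endoderm genes, 5 measured, averaged 3.55 to 4.26 in FGF3+10 cells, 2.27 to 5.40 in DFNB cells and 7.31 to 8.64 in hESC. What these markers contribute to the ribosomal protein levels was not tested.

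Small and large subunit genes had similar median changes. For DFNB minus hESC, the 20 bright small subunit genes had a median log2 change of -0.36 and a range of -0.47 to -0.24, and the 29 of the large subunit a median of -0.35 and a range of -0.53 to -0.23. For FGF3+10 minus hESC the medians were -0.30 in the small subunit and -0.34 in the large. No bright member had a mean above that of hESC in either group, and their standard errors lay between 0.28 and 0.40. The median changes are thus about as large as these errors.

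Among small subunit proteins, RPS6 is the target of S6 kinases downstream of mTOR. It stood at 12.23, 12.67 and 12.49 in FGF3+10 cells, 12.33, 12.54 and 12.20 in DFNB cells, and 13.11, 12.89 and 12.29 in hESC of Shef3, H14 and Shef1. The log2 change was -0.30 ± 0.31 for FGF3+10 and -0.40 ± 0.31 for DFNB against hESC (SE), and hESC of Shef1 lay within the day 14 range. RPS19, the first gene found mutated in Diamond-Blackfan anaemia, had 12.50, 12.86 and 12.50 in FGF3+10 cells, 12.53, 12.92 and 12.24 in DFNB cells, and 13.10, 13.03 and 12.28 in hESC. Its changes of -0.18 ± 0.34 and -0.24 ± 0.34 were among the closest to 0 of the family, and after quantile normalisation they were 0.04 and 0.01. RPS25, which serves some viral internal ribosome entry sites and binds MDM2, was at 11.24, 11.80 and 11.72 in FGF3+10 cells, 11.61, 11.57 and 11.59 in DFNB cells, and 12.20, 12.16 and 11.80 in hESC. No day 14 array of it reached above the lowest hESC array, with changes of -0.47 ± 0.28 in both comparisons and adjusted p of 0.549 and 0.441 (limma). RPS27 read 12.36, 12.76 and 12.52 in FGF3+10 cells, 12.54, 12.72 and 12.23 in DFNB cells, and 13.16, 12.93 and 12.27 in hESC. Its changes were -0.24 ± 0.33 for FGF3+10 and -0.29 ± 0.33 for DFNB against hESC, and a dim second probe set of it had 0.92 and 0.60.

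Among large subunit proteins, RPL11, which with RPL5 and 5S rRNA can bind MDM2 and stabilise p53, was at 11.54, 12.06 and 11.79 in FGF3+10 cells, 11.76, 11.96 and 11.65 in DFNB cells, and 12.35, 12.30 and 11.76 in hESC. The changes were -0.34 ± 0.30 and -0.35 ± 0.30. RPL3 had 10.54, 11.14 and 11.10 in FGF3+10 cells, 10.81, 10.93 and 10.81 in DFNB cells, and 11.41, 11.45 and 11.05 in hESC. DFNB arrays of RPL3 all lay below those of hESC, with a change of -0.45 ± 0.29 and an adjusted p of 0.467 (limma), while FGF3+10 arrays overlapped hESC with -0.38 ± 0.29. The most negative t among bright members was that of RPL12 for DFNB (-0.53 ± 0.32) and of RPL36 for FGF3+10 (-0.54 ± 0.32). Next for FGF3+10 came RPS25 of the small subunit (-0.47 ± 0.28) and then RPL14 (-0.45 ± 0.30). RPL12 read 11.84, 12.42 and 12.24 in FGF3+10 cells, 11.996, 12.33 and 11.92 in DFNB cells, and 12.84, 12.82 and 12.18 in hESC. RPL36 read 11.01, 11.65 and 10.93 in FGF3+10 cells, 11.23, 11.29 and 11.196 in DFNB cells, and 11.91, 11.96 and 11.34 in hESC. RPL14 read 11.26, 11.92 and 11.81 in FGF3+10 cells, 11.61, 11.72 and 11.54 in DFNB cells, and 12.36, 12.19 and 11.79 in hESC. DFNB arrays of RPL36 and RPL14 lay below all their hESC arrays, and those of RPL12 did not. At the other end, RPL37A, RPL41, RPL7, RPL39 and RPLP1 had changes between -0.25 and -0.22 for FGF3+10 and between -0.27 and -0.26 for DFNB, with RPL32 at -0.26 for FGF3+10. RPL37A read 12.55, 12.88 and 12.49 in FGF3+10 cells, 12.63, 13.01 and 12.14 in DFNB cells, and 13.29, 13.07 and 12.22 in hESC. RPL41 read 12.55, 12.88 and 12.43 in FGF3+10 cells, 12.61, 13.02 and 12.11 in DFNB cells, and 13.26, 13.06 and 12.24 in hESC. RPL7 read 12.32, 12.66 and 12.46 in FGF3+10 cells, 12.47, 12.74 and 12.15 in DFNB cells, and 13.08, 12.84 and 12.22 in hESC. In RPL32 it was 12.02, 12.36 and 11.92 in FGF3+10 cells, 12.06, 12.43 and 11.58 in DFNB cells, and 12.79, 12.56 and 11.72 in hESC. All 3 groups overlapped in each of these genes. After quantile normalisation the changes of these genes lay between -0.06 and 0.03, on either side of 0, with both outer values from RPL32.

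The lateral stalk, which recruits elongation factors to the ribosome, is formed by RPLP0 with RPLP1 and RPLP2. RPLP1 had 12.44, 12.76 and 12.48 in FGF3+10 cells, 12.57, 12.86 and 12.19 in DFNB cells, and 13.14, 12.97 and 12.27 in hESC. Its partner RPLP2 had dim probe sets here, at 3.43, 1.91 and 4.37 in FGF3+10 cells, 2.55, 3.12 and 4.34 in DFNB cells, and 3.75, 3.83 and 4.62 in hESC. Day 14 values of RPLP2 overlapped those of hESC, with changes of -0.83 ± 0.68 and -0.73 ± 0.68. RPLP0 and RPSA did not enter the member list.

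The other dim members that are not paralogues were RPL27A and RPL36A. RPL27A had 6.16, 6.28 and 6.49 in FGF3+10 cells, 6.08, 6.29 and 6.37 in DFNB cells, and 6.85, 6.74 and 6.47 in hESC, with changes of -0.38 and -0.44 ± 0.26. RPL36A, whose paralogue RPL36AL lies outside the naming rule, had the highest change of the family. It read 2.25, 1.30 and 1.30 in FGF3+10 cells, 3.05, 2.55 and 2.15 in DFNB cells, and 0.50, 0.20 and 1.5 in hESC. The change was 1.85 ± 0.45 for DFNB against hESC, with an adjusted p of 0.13 (limma) and 0.0986 with cell line as a block, and 0.88 ± 0.45 for FGF3+10, with an adjusted p of 0.478. All 9 values lie below the common array median of 3.20, where the deposited values have no detection call, and RPL36AL had -0.51 in both comparisons.

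Among members that were not dim, the paralogue RPL22L1 had the largest change from hESC, with or without added FGF. The other paralogues that were not dim, RPS27L, RPL7L1 and RPL26L1, had smaller changes, given further below. RPL22L1, a regulator of splicing and a stand-in for RPL22 in the ribosome, read 8.63, 9.53 and 9.62 in FGF3+10 cells, 8.99, 9.21 and 9.39 in DFNB cells, and 10.11, 10.46 and 10.38 in hESC of Shef3, H14 and Shef1. Every day 14 array lay below every hESC array. The log2 change was -1.05 ± 0.34 for FGF3+10 and -1.12 ± 0.34 for DFNB against hESC (SE), with adjusted p of 0.265 and 0.183 by limma, and 0.139 and 0.0971 with cell line as a block. With arrays weighted in limma by how closely they followed their group means, it passed for DFNB at an adjusted p of 0.034. Under these weights 1612 of 19775 genes passed for DFNB. RPL22 itself had 11.80, 12.32 and 12.04 in FGF3+10 cells, 11.96, 12.14 and 11.80 in DFNB cells, and 12.69, 12.55 and 11.91 in hESC, with changes of -0.33 ± 0.31 and -0.42 ± 0.31.

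RPL39L, known from mice as the form of RPL39 that is abundant in spermatogenic cells and stem cells, read 6.35, 7.58 and 6.44 in FGF3+10 cells, 7.03, 6.59 and 5.97 in DFNB cells, and 8.36, 8.77 and 7.33 in hESC. DFNB and hESC arrays did not overlap, while H14 in FGF3+10 lay above Shef1 hESC. The changes were -1.36 ± 0.51 for FGF3+10 and -1.62 ± 0.51 for DFNB (SE), with adjusted p of 0.336 and 0.198 by limma and 0.162 and 0.0946 with the block. RPL39, at the exit tunnel of the ribosome, had 12.30, 12.64 and 12.27 in FGF3+10 cells, 12.42, 12.75 and 11.99 in DFNB cells, and 13.04, 12.82 and 12.12 in hESC, with changes of -0.25 ± 0.35 and -0.27 ± 0.35. In Shef1, where the bright members had median changes of 0.14 for FGF3+10 and -0.12 for DFNB, RPL22L1 had -0.76 and -0.99 and RPL39L had -0.89 and -1.36.

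Set against its counterpart array by array, RPL39L minus RPL39 changed by -1.11 for FGF3+10 and -1.35 for DFNB against hESC, and the groups did not overlap in either comparison. In single lines these differences were -1.26, -1.02 and -1.04 for FGF3+10, and -0.70, -2.12 and -1.23 for DFNB, in Shef3, H14 and Shef1. RPL22L1 minus RPL22 changed by -0.72 for FGF3+10 and -0.71 for DFNB, and the groups overlapped. In a two-sided exact permutation test, 3 arrays against 3 cannot give less than p = 0.1, which RPL39L reached in both comparisons, and RPL22L1 gave p = 0.2 in both. These differences from a counterpart were tested for 7 paralogues in 3 comparisons after the values had been seen.

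Other paralogues followed no common course. RPS27L, a p53 target that differs little from RPS27, read 10.97, 10.63 and 10.54 in FGF3+10 cells, 10.63, 11.29 and 10.93 in DFNB cells, and 10.78, 11.06 and 10.72 in hESC. Its changes were -0.14 ± 0.30 and 0.10 ± 0.30, and the first was 0.15 after quantile normalisation. RPL7L1, which acts in ribosome assembly, read 9.95, 10.26 and 10.06 in FGF3+10 cells, 9.96, 10.33 and 10.16 in DFNB cells, and 10.58, 10.27 and 10.04 in hESC. The changes were -0.21 ± 0.28 and -0.15 ± 0.28, and on the quantile scale 0.08 and 0.11, like those of RPL7, which were -0.24 ± 0.33 and -0.26 ± 0.33 and then 0.01 and 0.02. RPL26L1 had 9.40, 9.71 and 9.37 in FGF3+10 cells, 9.45, 9.61 and 9.52 in DFNB cells, and 10.13, 10.02 and 9.45 in hESC, with changes of -0.38 ± 0.29 and -0.34 ± 0.29.

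RPL10L, the intronless testis form of RPL10, read 5.28, 5.61 and 6.06 in FGF3+10 cells, 5.72, 5.37 and 6.14 in DFNB cells, and 6.18, 6.16 and 6.43 in hESC. Its groups did not overlap in either comparison with hESC, with changes of -0.61 ± 0.33 and -0.51 ± 0.33 and adjusted p of 0.502 and 0.472 (limma). RPL3L, the form of RPL3 found in heart and skeletal muscle, had values far below the array median. It read 0.73, -0.46 and -0.47 in FGF3+10 cells, -0.25, 0.62 and -0.85 in DFNB cells, and 0.11, 1.37 and 0.68 in hESC. Its groups overlapped, with changes of -0.78 ± 0.53 and -0.88 ± 0.53.

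**Figure D4:**
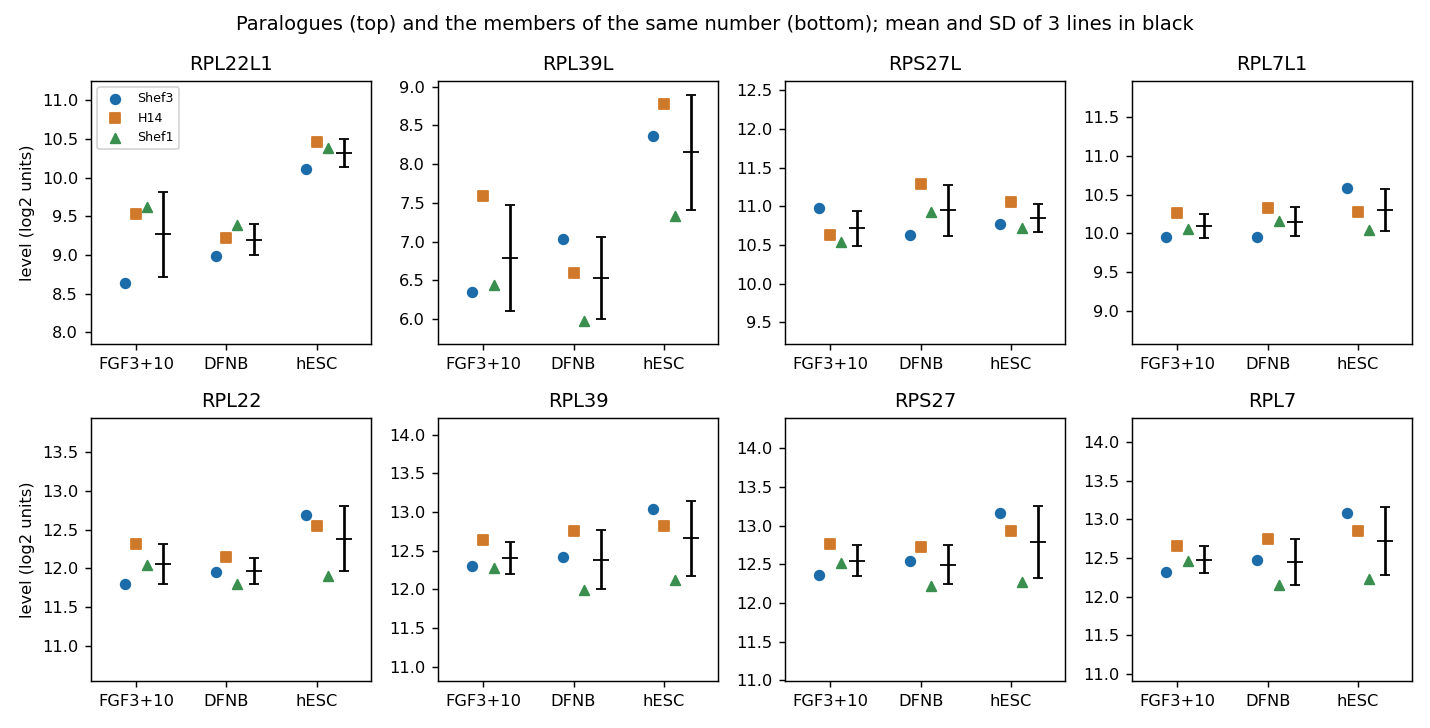
Levels (log2 units) of 4 paralogues (top row) and the members of the same number (bottom row) in FGF3+10, DFNB and hESC cells of Shef3 (circles), H14 (squares) and Shef1 (triangles), with mean and SD of 3 lines in black. Every panel spans the same number of log2 units; RPL22L1 and RPL39L average 9.26 and 6.79 in FGF3+10 cells and 9.20 and 6.53 in DFNB cells, against 10.3 and 8.15 in hESC.

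A moderated F test of cell line, fitted beside group, called 0 of 59 members, against 91 of 19775 genes or 0.46%, and the lowest adjusted p was 0.205, for RPLP2 (limma). Line means of RPLP2 were 3.24 ± 0.62 in Shef3, 2.95 ± 0.97 in H14 and 4.44 ± 0.15 in Shef1 (SD, n = 3 arrays each). After it came RPL29 with 11.6 ± 0.48, 11.8 ± 0.20 and 11.02 ± 0.065, RPL39L with 7.25, 7.65 and 6.58, RPL41 with 12.8, 12.99 and 12.3, RPL32 with 12.3, 12.5 and 11.7, and RPL31 with 12.7, 12.9 and 12.2. By array RPL29 read 11.202, 11.82 and 11.07 in FGF3+10 cells, 11.35, 11.66 and 10.95 in DFNB cells, and 12.11, 12.07 and 11.03 in hESC of Shef3, H14 and Shef1. RPL31 read 12.40, 12.84 and 12.31 in FGF3+10 cells, 12.54, 12.85 and 12.10 in DFNB cells, and 13.26, 13.05 and 12.25 in hESC. In the deposited values the bright members shared an order of line means, with H14 the highest line for 49 of 49 and Shef1 the lowest for 47. Their median averaged 12.49 ± 0.17 in H14, 12.32 ± 0.49 in Shef3 and 11.99 ± 0.12 in Shef1, so that neighbouring lines do not differ beyond the spread of Shef3. This order was not kept after quantile normalisation, where the median averaged 12.28 ± 0.08, 12.24 ± 0.09 and 12.28 ± 0.01 in H14, Shef3 and Shef1.

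The bright members also moved together from array to array. Over the 9 arrays, the correlation of each with the mean of the others had a median r of 0.978 and a lowest value of 0.782, for RPS25. After quantile normalisation the median was 0.561 and the lowest value -0.17, for RPL6. That step itself reduces a shift shared by the brightest genes, and the part of array scale in the likeness was not tested. Members off the common course were RPL36A with r = -0.65, RPLP2 with -0.28, RPL10L with 0.084, RPS27L with 0.163, RPL3L with 0.339 and RPL22L1 with 0.485. Outside the family, the genes most like the mean of the members were BEX3, NACA, FAU, EIF3H, PHB2 and COX4I1, with r between 0.986 and 0.991 over the same arrays. Among 11446 other genes of mean level 4 or more, 279 had r above 0.9 and the median was 0.313. These correlations describe arrays that share lines and groups, and carry no test.

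FAU, which encodes the small subunit protein eS30, read 11.42, 11.90 and 11.50 in FGF3+10 cells, 11.53, 11.79 and 11.35 in DFNB cells, and 12.32, 12.18 and 11.50 in hESC. It was one of 2 measured ribosomal components outside the naming rule, with RPL36AL, and its changes were -0.39 ± 0.32 and -0.44 ± 0.32. NACA, a subunit of the complex that binds nascent chains at the ribosome, read 12.05, 12.54 and 12.25 in FGF3+10 cells, 12.24, 12.44 and 12.001 in DFNB cells, and 12.85, 12.78 and 12.01 in hESC.

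The rest of the translation machinery was described by lists, each read against the median over all genes of -0.19 in both comparisons with hESC. In none of the lists of translation and ribosome production was any gene called by limma, with or without the block. The strongest medians belonged to the production of ribosomes. RNA polymerase I and its factors, which transcribe rRNA, had lower means in FGF3+10 and in DFNB cells for 14 of 14 genes, with medians of -0.59 and -0.68. Ribosome assembly factors were lower for 54 of 56 genes in each, with medians of -0.54 and -0.64. RPF2, which helps install the 5S particle, had -1.09 ± 0.40 and -1.27 ± 0.40, WDR12 had -1.29 ± 0.45 for DFNB and NOB1, a nuclease of the small subunit, -0.98 ± 0.48 for FGF3+10. For POLR1B the changes were -1.07 ± 0.64 and -1.39 ± 0.64, for POLR1D -1.01 ± 0.47 with FGF3+10 and for POLR1G -1.19 ± 0.55 with DFNB.

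By line the assembly factors had medians of -1.39, -0.39 and 0.13 in FGF3+10 cells and -1.51, -0.58 and 0.06 in DFNB cells of Shef3, H14 and Shef1. Their order over the lines is that of the ribosomal proteins, which had -0.84, -0.24 and 0.11 and then -0.68, -0.26 and -0.12. The background had the same order. Genes of mean level 10 or more had -0.73, -0.26 and 0.09 and then -0.61, -0.28 and -0.02. All genes tested had -0.39, -0.23 and 0.06 and then -0.31, -0.29 and 0.04. Importins and dedicated chaperones were lower for 9 of 9 genes, with medians of -0.34 and -0.44. BCCIP had -0.95 ± 0.44 and -1.12 ± 0.44, and IPO5 had -0.71 ± 0.40 and -0.94 ± 0.40.

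Initiation factors were lower for 31 of 34 genes in FGF3+10 cells and for 32 in DFNB cells, with medians of -0.42 and -0.47, and EIF4E3 had -1.17 ± 0.51 and -1.28 ± 0.51. EIF4A2, a helicase, had -0.95 ± 0.82 and -1.03 ± 0.82 on a dim probe set. Elongation factors had medians of -0.28 and -0.31 over 6 genes, with EIF5A2 at -0.64 ± 0.30 and -0.54 ± 0.30 and EEF1A2 at -0.63 and -0.69 ± 0.44. Other genes with TOP mRNAs, 11 measured, had medians of -0.25 and -0.32, and among them PABPC1 had -0.45 ± 0.33 for DFNB and NPM1 -0.36 ± 0.30 for FGF3+10. Mitochondrial ribosomal proteins, which belong to a separate ribosome, were lower for 76 of 78 genes in each comparison, with medians of -0.48 and -0.53. MRPS30 had -0.94 ± 0.41 and -1.16 ± 0.41, and MRPL16 had -0.90 ± 0.32 and -1.06 ± 0.32.

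Genes that govern this output showed no common direction. The list of MYC, mTOR and LARP genes had medians of -0.14 and -0.13, with 10 of 16 genes lower in FGF3+10 cells and 8 of 16 in DFNB cells. MYC had -1.22 ± 0.51 for FGF3+10 with an adjusted p of 0.388 (limma), LARP1B had -1.49 ± 0.42 and -1.59 ± 0.42, and MXD1, an antagonist of MYC, 1.18 ± 0.56 for DFNB. Of 8 S6 kinase genes, RPS6KA2 had 1.18 ± 0.42 and 1.71 ± 0.42 with adjusted p of 0.307 and 0.129, and RPS6KA1 had -0.73 ± 0.46 and -0.67 ± 0.46.

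**Figure D5:**
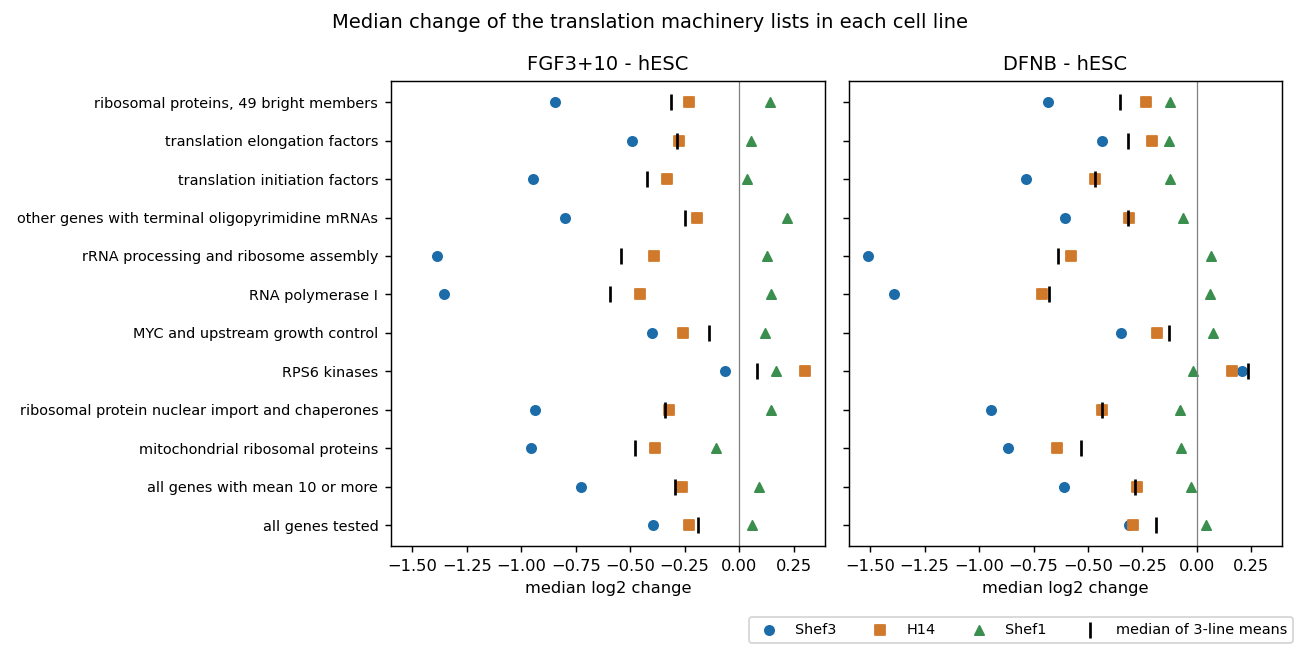
Median log2 change of the bright ribosomal protein genes, of lists of the translation machinery and of all genes, in Shef3 (circles), H14 (squares) and Shef1 (triangles), with a bar for the median of the 3-line means, for FGF3+10 minus hESC (left) and DFNB minus hESC (right). Ribosome assembly and RNA polymerase I lie furthest left in Shef3, at -1.39 and -1.36 in FGF3+10 cells and -1.51 and -1.39 in DFNB cells, while Shef1 medians lie near 0.

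Members known from disease or stress signalling were read as subsets. Of 18 genes listed for Diamond-Blackfan anaemia, a failure of red cell production, 13 were members. Their medians were -0.30 and -0.35, with 13 of 13 lower in each comparison. RPS29 had -0.41 ± 0.34 and -0.44 ± 0.34, while a dim second probe set of RPS29 had 1.44 and 1.39. RPL35 had -0.40 ± 0.29 for FGF3+10 and RPS10 -0.43 ± 0.32 for DFNB. Of 12 listed as binding MDM2, the ligase that degrades p53, 7 were members, with medians of -0.33 and -0.35. In this subset RPS3, a protein of the mRNA entry channel, had -0.35 ± 0.31 for FGF3+10 and RPS7 -0.40 ± 0.30 for DFNB. All 59 members had medians of -0.33 and -0.36 in the same comparisons, with 58 and 57 of them lower.

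Changes did not separate by transcript start. Among the 51 members with a RefSeq window, the 41 with a run near the start had a median change of -0.37 for DFNB minus hESC, and the 10 without one had -0.33. The 10 without a run were RPL6, RPL7L1, RPL9, RPL10L, RPL26L1, RPL27, RPS4X, RPS15, RPS27L and RPS29. By type of probe set, the 16 members read by _at sets had a median of -0.40, the 29 read by _s_at sets -0.32 and the 14 read by _x_at sets -0.39. The last 2 types can bind transcripts of related genes, and ribosomal protein genes have many processed pseudogenes, so signal from copies cannot be told apart there. Of 61 other probe sets of members, 10 had the opposite sign for DFNB minus hESC, and 2 of the 23 with a mean level of 8 or more did.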

How the data were processed

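The series is a table of 9 Affymetrix arrays, 1 per cell line and group, made from 200 ng of RNA per the labels' protocols. Values as deposited by the authors are taken as log2, with the same median on each array. How they were background-corrected and summarised, and with which software, is not given in the sources used here. Precision is limited by the number of arrays. Of 54675 probe sets, 41091 had 1 symbol in the platform annotation and 1801 had several, and 11721 other than the 62 controls had none. Probe sets with several symbols gave no gene its name, and 41037 of the probe sets with 1 symbol matched a current gene by Entrez identifier. No detection calls were used.

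Levels were compared in R 4.3.3 with limma 3.58.1 (lmFit, eBayes) over 19775 genes, a mean per group and 1 shared spread, with Benjamini-Hochberg adjustment at 0.05. Cell line as a block was an alternative; the lines pair the arrays by their labels, and same-line deviations from the group means correlated at 0.0861 to 0.338 for DFNB and hESC, 0.181 to 0.283 for FGF3+10 and hESC, and 0.331 to 0.713 for FGF3+10 and DFNB. Other alternatives were quantile normalisation, other probe set rules, level filters, a floor, array weights and left-out arrays. The members, lists and tests were chosen with earlier results of these data known. All members are named, and full values go to the 6 highest and 6 lowest moderated t per comparison, the 6 largest F between lines, the paralogues with their counterparts, the stalk proteins, RPL11, RPS6 and RPS19; the 2 largest changes of each related list and the 6 genes most like the members are named. Promoter windows came from RefSeq (GRCh38.p14) by symbol.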

Additional observations from a re-analysis of the deposited data

Results flagged for a closer look

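In the deposited values of RPL6 and RPL7L1, of 59 members examined, both day 14 cultures of a line differed from hESC in one direction and both of another line in the opposite one. RPL6, a protein of the large subunit, had log2 changes from hESC of -0.70 for FGF3+10 and -0.51 for DFNB in Shef3, and of -0.14 and -0.19 in H14. In Shef1 its changes were 0.20 and 0.0282. For RPL7L1 in Shef3 the log2 change from hESC was -0.63 for FGF3+10 and -0.63 for DFNB. In Shef1 that of RPL7L1 was 0.0229 for FGF3+10 and 0.12 for DFNB. These differences between the lines were not tested, since each line has 1 array per group. After quantile normalisation RPL6 read 12.15, 12.185 and 12.09 in FGF3+10, DFNB and hESC cells of Shef3. In Shef1 it read 12.29, 12.40 and 12.28, so both lines lay above hESC. RPL7L1 then read 10.09, 10.22 and 10.11 in Shef1, on both sides of hESC. In Shef3 it read 10.182, 10.12 and 10.184, below hESC, and in H14 10.32, 10.34 and 10.07, above hESC. Groups of 3 arrays were too small for a search for single outlying samples.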

How the results depend on the processing

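With cell line as a block, 0 members were called in each comparison, and the medians of the members stayed at -0.33, -0.36 and 0.04 for FGF3+10 minus hESC, DFNB minus hESC and FGF3+10 minus DFNB. Array weights called 2 members, RPL22L1 and RPL36A, for DFNB minus hESC and 0 in the other comparisons, and over all genes 1612 were then called for DFNB and 284 for FGF3+10 against hESC. The cause was not tested. No other setting called a member in a comparison of groups. With arrays or lines left out, these medians ranged from -0.56 to -0.05, from -0.60 to -0.19 and from -0.09 to 0.17, with the outer values of the comparisons with hESC coming from settings without Shef3 or without Shef1 hESC. Of 1128 values of single genes under the alternatives, 1070 kept their sign and their side of the threshold.

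The sign changes given here are those of the genes with full values. Over all 59 members, quantile normalisation left 46 lower for FGF3+10 minus hESC, 52 for DFNB minus hESC and 15 for FGF3+10 minus DFNB, against 58, 57 and 11 as deposited. For FGF3+10 minus hESC, sign changes under quantile normalisation were RPL32 0.033, RPL37A 0.00999, RPL7 0.00673, RPL7L1 0.0765, RPS19 0.0418 and RPS27L 0.15. For DFNB minus hESC they were RPL7 0.0173, RPL7L1 0.106, RPLP1 0.0123 and RPS19 0.0122. The mean of probe sets gave RPS27 0.34 and RPS27L 0.0441 for FGF3+10 minus hESC, RPS27 0.15 for DFNB minus hESC, and RPL36 0.0129 for FGF3+10 minus DFNB. Only _at probe sets gave RPS27 0.92 and RPS27L 0.28 for FGF3+10 minus hESC, RPS27 0.60 for DFNB minus hESC, and RPS21 -0.0164 and RPS6 -0.14 for FGF3+10 minus DFNB. Array weights gave RPS27L -0.0524 for DFNB minus hESC, and RPL36 0.18 and RPL7L1 0.0669 for FGF3+10 minus DFNB. Raising values below 4 to 4 gave RPLP2 0.00931 for FGF3+10 minus DFNB.

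Leaving out arrays or lines turned the sign of small changes, here again for the genes with full values. Over all members, those lower for FGF3+10 minus hESC numbered 47 to 58, for DFNB minus hESC 56 to 58 and for FGF3+10 minus DFNB 4 to 55. For FGF3+10 minus hESC the ranges were RPL37A -0.54 to 0.0403, RPL41 -0.54 to 0.0047, RPL7 -0.48 to 0.026, RPL7L1 -0.34 to 0.00599, RPLP1 -0.49 to 0.0029, RPS19 -0.44 to 0.0282, RPS27 -0.50 to 0.0408 and RPS27L -0.30 to 0.0111, all but RPS27L turning without Shef3 (replicate 1). For DFNB minus hESC they were RPL7L1 -0.28 to 0.0917 and RPS27L -0.0724 to 0.26. For FGF3+10 minus DFNB they were RPL10L -0.30 to 0.11, RPL12 -0.0441 to 0.25, RPL22 -0.047 to 0.21, RPL36 -0.27 to 0.0936, RPL39L -0.13 to 0.73, RPL7L1 -0.16 to 0.0321, RPLP2 -0.67 to 0.56, RPS10 -0.0157 to 0.22 and RPS21 -0.0313 to 0.23. No detection call limits the dim values of RPL36A, RPLP2 and RPL3L.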
